A study of Canis lupus familiaris with 12 samples.

Results

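CSF2 encodes granulocyte-macrophage colony-stimulating factor (GM-CSF), a secreted cytokine, and its transcript was measured in dog kidney epithelial cells kept in acid or control medium. It was read by 2 of the 43603 gene probes of the array, A_11_P0000019962 and A_11_P050036. They were taken as every probe whose identifier on the array is the RefSeq transcript of dog CSF2. CSF2 is thus 1 of the 944 genes that could be named on this array, which are reached by 1484 probes, or 3.4% of it. CSF2 was selected because its signal differed between the groups, so its difference is given as a description and without a test.

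GM-CSF promotes the formation, survival and activation of granulocytes, macrophages and dendritic cells. It binds a receptor made of a specific alpha subunit and a beta subunit that is also used by the receptors for IL-3 and IL-5, and the receptor signals through JAK2 and STAT5. Epithelial cells, fibroblasts and endothelial cells, as well as T cells, make GM-CSF after stimulation by cytokines such as IL-1 and TNF. Its gene is controlled by NF-kappaB, AP-1 and NFAT factors, and its messenger RNA is short-lived because of AU-rich elements.

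The cells were Madin-Darby canine kidney (MDCK) cells, an established epithelial line from dog kidney tubule. Cultures were grown to confluence in serum, moved to serum-free medium at pH 7.4, and then held for 24 h in medium at pH 7.0, acidified by less bicarbonate, or at pH 7.4 as the control. Each of 3 biological replicates gave 1 RNA per pH, extracted on its own occasion, and every one of these 6 RNAs went onto 2 one-colour arrays, which makes 6 arrays per group. The series title names proinflammatory cytokine genes under acid stress as its subject. In both groups the serum had been withdrawn. All cells came from 1 line, so the spread between replicates is that of separate extractions and not of separate animals.

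The 4 arrays of a biological replicate shared 1 slide and 1 scan, which no other replicate used, so slide and extraction cannot be told apart. The share of probes that the scanner software called well above background ranged from 49.4% to 70.4% by array, and biological replicate 2 had the lowest shares, 49.4% to 54.1%. The 75th percentile of the processed signal, by which every array was scaled, lay between 410 and 944. The epithelial junction genes OCLN, CGN and TJP1 were well above background on 12 of 12 arrays, while UMOD, a marker of the thick ascending limb, was not on any array. Of the leukocyte markers with a named probe, CD28 and IL2RA were well above background on 0 arrays, CD4 on 3 of 6 at pH 7.0 and 2 of 6 at pH 7.4, and CD8A on 4 and 3 of 6. The endothelial marker VWF and the stromal collagen genes COL1A1 and COL1A2 were well above background on 12 of 12 arrays, while the endothelial receptor KDR was on 1 of 6 at pH 7.0 and 2 of 6 at pH 7.4. The stromal receptor PDGFRB was on 5 of 6 in each group. The tested markers of these cell types (CD8A, VWF, COL1A1, COL1A2 and PDGFRB) had log2 differences between -0.21 and 0.43, pH 7.0 minus pH 7.4. Their limma adjusted p was 0.556 or more. Among the epithelial markers, OCLN gave 0.26, CGN 0.24 and TJP1 -0.096, with limma adjusted p of 0.704, 0.725 and 0.916. CLDN2 had the largest difference of the 4 tested, 1.15 ± 0.29 (SE, limma adjusted p = 0.174). The CLDN2 probe cleared the background in only 5 acid and 3 control hybridisations.

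CSF2 signal was higher in acid medium. At probe A_11_P0000019962 the processed signal, a background-corrected Cy3 brightness, was 3793 and 3520 on the arrays of biological replicate 1 at pH 7.0, 12813 and 10616 on those of replicate 2, and 16968 and 11972 on those of replicate 3. At pH 7.4 the same probe gave 1472 and 852 in replicate 1, 703 and 988 in replicate 2, and 1346 and 1149 in replicate 3. Every array at pH 7.0 was brighter than every array at pH 7.4, and the 2 arrays of replicate 1 were the dimmest of the acid group.

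At probe A_11_P050036 the processed signal at pH 7.0 was 650 and 620 in replicate 1, 1756 and 1969 in replicate 2, and 5554 and 2742 in replicate 3. At pH 7.4 it was 210 and 130, then 129 and 171, then 438 and 288 in the same order. The groups again did not overlap, and replicate 1 was again the dimmest of the acid group. At pH 7.4 this probe was brightest in replicate 3. Whole cultures were lysed, so RNA from fewer or more cells that make CSF2 and RNA at another level per cell cannot be told apart.

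The signal was then expressed as log2 of the processed signal less the 75th percentile of its own array, which makes 0 the level of a probe at the 75th percentile. For A_11_P0000019962 the 6 acid arrays ran from 2.10 to 4.69, with a median of 4.45, and the 6 control arrays from -0.15 to 1.17, with a median of 0.86. The lowest acid array stood 0.93 above the highest control array. For A_11_P050036 the acid arrays ran from -0.41 to 2.78, with a median of 2.03, and the control arrays from -2.87 to -0.67, with a median of -1.74. Here the lowest acid array stood 0.26 above the highest control array, a narrower margin set by acid array 2 and control array 5, which belong to different replicates. Over all 27136 probes tested (those that cleared the background on 6 or more arrays of either group), the acid arrays all lay above the control arrays at 0.848% of probes. Nothing is read from that share for CSF2, which was selected on this contrast.

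**Figure D1:**
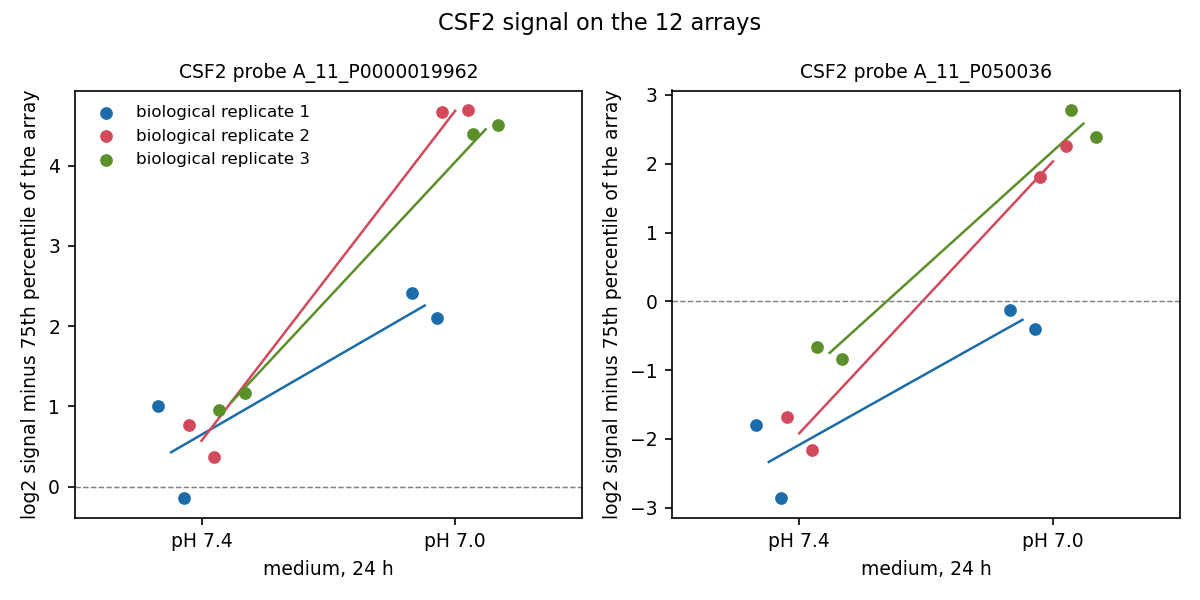
Scaled log2 signal (vertical axis, 0 at the 75th percentile of the array) of the 2 CSF2 probes, 1 panel each, on 12 arrays at pH 7.4 and pH 7.0 (horizontal axis); points are arrays, colours are biological replicates, and lines join the means of paired RNAs. At A_11_P0000019962 the acid arrays lie between 2.10 and 4.69 and the control arrays between -0.15 and 1.17, and replicate 1 has the lowest acid arrays at both probes.

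Each RNA was given the mean of its 2 arrays. At A_11_P0000019962 the acid RNAs of replicates 1 to 3 had log2 levels of 2.26, 4.68 and 4.45, a mean of 3.80 ± 1.34 (SD, n = 3), and the control RNAs had 0.43, 0.57 and 1.06, a mean of 0.69 ± 0.33 (SD, n = 3). At A_11_P050036 the acid RNAs had -0.27, 2.03 and 2.58, a mean of 1.45 ± 1.51 (SD, n = 3), and the control RNAs had -2.33, -1.92 and -0.75, a mean of -1.67 ± 0.82 (SD, n = 3). At both probes the spread between RNAs was wider in acid than in control medium. The width of the acid group came from replicate 1, whose acid RNA was at least 2.20 below the other acid RNAs at A_11_P0000019962 and at least 2.30 below them at A_11_P050036.

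Within each biological replicate the pH 7.0 RNA was set against its pH 7.4 partner. The log2 difference at A_11_P0000019962 was 1.83 in replicate 1, 4.11 in replicate 2 and 3.39 in replicate 3, that is 3.55-fold, 17.3-fold and 10.5-fold. The mean difference was 3.11 ± 1.17 (SD, n = 3 pairs), or 8.64-fold. CSF2 was higher in acid in 3 of 3 pairs at this probe, as were 18% of all tested probes (15.7% were lower in 3 of 3), by amounts that themselves varied by more than 2 log2 units.

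At A_11_P050036 the differences were 2.07, 3.95 and 3.33, or 4.19-fold, 15.5-fold and 10.1-fold, with a mean of 3.12 ± 0.96 (SD, n = 3 pairs), or 8.68-fold. The order of the replicates was the same at both probes: smallest in replicate 1, largest in replicate 2. The probes differed from each other in these differences by -0.24, 0.16 and 0.060 in replicates 1 to 3, A_11_P0000019962 minus A_11_P050036, so they gave nearly the same change in each pair. They read the same transcript in the same RNAs and are not replicates of the pH comparison. Without biological replicate 2 the mean differences were 2.61 and 2.70 at A_11_P0000019962 and A_11_P050036, and without biological replicate 1 they were 3.75 and 3.64. With normexp background correction the mean difference at A_11_P050036 was 2.41, while at A_11_P0000019962 it stayed at 3.11.

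When each acid array was set against each control array of the same replicate, the 12 differences ran from 1.10 to 4.32 at A_11_P0000019962 and from 1.40 to 4.42 at A_11_P050036. All were above 0. In every replicate the differences at both probes lay above the 99th percentile of all tested probes, which was 1.29, 1.55 and 1.43 in replicates 1 to 3. Nothing is read from this place in the tail, because CSF2 was selected on this contrast.

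Among the 27136 tested probes, A_11_P0000019962 ranked 43, 3 and 6 from the top by its difference in replicates 1 to 3, and A_11_P050036 ranked 22, 4 and 7. By the mean over the 3 pairs they ranked 2 and 1. The differences of all tested probes had medians of -0.017, 0.022 and 0.048 in the 3 replicates and interquartile ranges of 0.64, 0.54 and 0.73. CSF2 therefore stood furthest up in replicates 2 and 3 and somewhat lower in replicate 1. These ranks describe why the gene was selected and support nothing further.

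**Figure D2:**
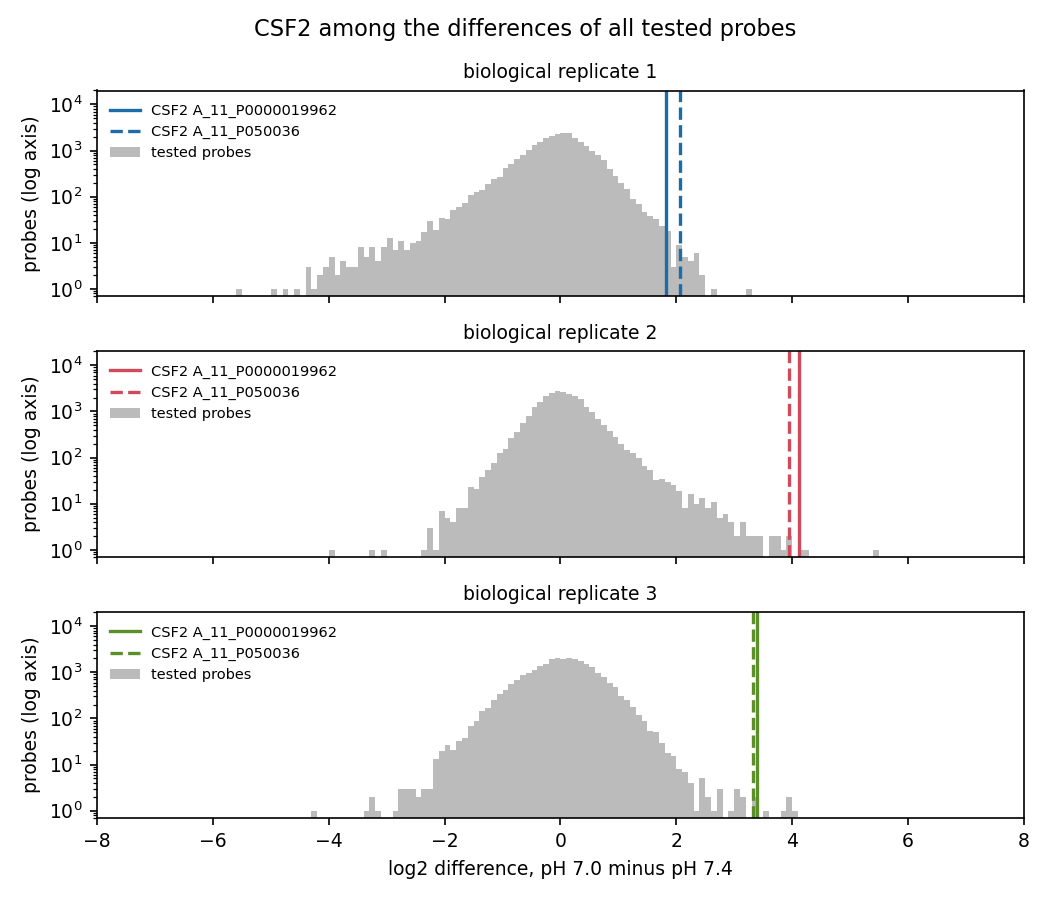
Number of tested probes (vertical axis, log scale) by their log2 difference, pH 7.0 minus pH 7.4 (horizontal axis), in each biological replicate, with the 2 CSF2 probes marked. The CSF2 probes lie at 1.83 and 2.07 in replicate 1, 4.11 and 3.95 in replicate 2, and 3.39 and 3.33 in replicate 3, in the upper tail each time.

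The same arrays give the standing of CSF2 within each RNA. At pH 7.4 probe A_11_P0000019962 lay between percentiles 74.0 and 81.9 of all 43603 probes, with a mean of 79.2 ± 2.99 (SD over 6 arrays). At pH 7.0 it lay between percentiles 87.8 and 96.5, with a mean of 93.5 ± 4.08 (SD over 6 arrays). Probe A_11_P050036 moved from a mean percentile of 64.1 ± 5.43 to 83.1 ± 7.80 (SD over 6 arrays). A CSF2 signal was thus present in control medium as well, and did not first appear in acid.

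Neither probe was limited by the range of the scanner. Both were well above background on 12 of 12 arrays and saturated on 0. At A_11_P0000019962 the median spot signal was 18.4 to 61.2 times the local background at pH 7.4 and 77.9 to 601 times at pH 7.0. At A_11_P050036 it was 3.95 to 15.6 times the local background at pH 7.4 and 14.8 to 227 times at pH 7.0. The control arrays of replicates 1 and 2 were those on which A_11_P050036 came closest to the background.

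The CSF2 signal in control medium differed between the biological replicates, each of which had its own extraction and slide. The control RNA of replicate 3 exceeded that of replicate 1 by 0.63 at A_11_P0000019962 and by 1.59 at A_11_P050036, and it exceeded that of replicate 2 by 0.49 and 1.17. Both probes gave the same order of the control RNAs, replicate 1 lowest and replicate 3 highest, but A_11_P050036 spread them further apart. The acid RNAs of replicates 2 and 3 changed places between the probes: replicate 3 minus replicate 2 was -0.23 at A_11_P0000019962 and 0.55 at A_11_P050036. Their order is therefore not settled by these probes.

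Gaps between the duplicate arrays of 1 RNA were set beside such steps. The measures are unlike: a gap is between single arrays of 1 slide, and a step is between means of 2 arrays on different slides. The 2 acid arrays differed at A_11_P0000019962 by 0.32, 0.022 and 0.12 in replicates 1 to 3, and at A_11_P050036 by 0.28, 0.46 and 0.40. The control arrays differed by 1.15, 0.40 and 0.21 at A_11_P0000019962 and by 1.06, 0.48 and 0.17 at A_11_P050036. The control RNA of replicate 1 had the least alike duplicates, with array 1 above array 2 at both probes, against a median absolute difference of 0.47 over all tested probes on the same 2 arrays. The signed median over all tested probes, array 1 minus array 2, was 0.25 there. The steps between control RNAs at A_11_P0000019962 were smaller than this gap of 1.15, while at A_11_P050036 control replicate 3 stood above the other control RNAs by 1.59 and 1.17, more than the gap of 1.06. The pH difference in replicate 1, the smallest of the 3, was larger than the gap at each probe.

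The other genes of GM-CSF biology were taken from lists by role, 108 genes in all besides CSF2. A named probe was found for 24 of them, and 13 could be tested. At an adjusted p under 0.05 (limma, Benjamini-Hochberg over all 27136 tested probes) 0 of the 13 were higher and 0 lower, against 0% of all tested probes in each direction. At an unadjusted p under 0.05 limma gave 0 higher and 2 lower of the 13, IL5 and KITLG, while 1758 of all tested probes (6.48%) were higher and 1566 (5.77%) lower. The median log2 difference of the 13 was 0.20, from -0.96 to 0.50, and that of all tested probes was 0.012. CSF2 was selected on this contrast, so the distance of the 13 from it is not read as a result. The count over all probes moved when a replicate was left out: without biological replicate 1, 203 probes were called higher and 74 lower, without biological replicate 2, 200 and 447, and without biological replicate 3, 0 and 0. These fits rest on fewer pairs and more on the spread pooled over all tested probes, so a larger count there is not stronger support.

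The receptor subunits CSF2RA and CSF2RB had no named probe and were not analysed here. Of the cytokines and receptors that share the beta subunit, IL5, which drives eosinophil growth, lay on the opposite side from CSF2. Its log2 level ran from -3.02 to -1.88 (median -2.41) at pH 7.0 and from -2.12 to -0.97 (median -1.42) at pH 7.4, so the groups overlapped slightly. The differences were -0.62, -0.64 and -1.63 in replicates 1 to 3, with a mean of -0.96 ± 0.26 (SE), lower in 3 of 3 pairs, and did not pass the adjustment in limma (adjusted p = 0.211). Without biological replicate 3, the IL5 difference was -0.63. IL3, a growth factor for early blood progenitors, was well above background on 2 of 6 acid and 1 of 6 control arrays at its better detected probe and had no value that could be compared.

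Among the other haematopoietic growth factors, KITLG, the ligand of the receptor KIT, ran from -3.37 to -2.70 (median -2.90) in acid and from -2.37 to -1.53 (median -1.98) in control medium. All acid arrays lay below all control arrays, as they did at 0.789% of tested probes. The KITLG differences were -1.38, -1.04 and -0.47, with a mean of -0.96 ± 0.25 (SE) and an adjusted p of 0.183 in limma. FLT3LG, which supports dendritic cell development, had no common direction: -0.71, 1.49 and 0.52, a mean of 0.43 ± 0.36 (SE, limma adjusted p = 0.684), and -0.095 without biological replicate 2. Their receptors KIT and FLT3 were well above background on at most 1 of 12 arrays. The colony-stimulating factors CSF1 and CSF3 had no named probe.

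Of 12 cytokines and receptors known to induce CSF2, 7 had a named probe and 6 of these were too dim for the test. IL1A, an IL-1 cytokine released by stressed epithelium, was well above background on 5 of 6 acid arrays and 0 of 6 control arrays. Its signal was 10.5 to 24.7 at pH 7.0 and 2.03 to 8.72 at pH 7.4, and its acid mean was at least 1.74-fold above the lowest signal that could be told from background in the control group. IL1A was thus on the same side as CSF2, but close to the background on every array. IL1B was well above background on 0 arrays, IL6 on 1 of 6 in each group at its better detected probe, and IL17A on 3 acid and 2 control arrays. IL18 and IL33 were well above background on 1 control array at most.

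TNF, the 1 inducer that could be tested, was near the background, well above it on 4 acid and 5 control arrays. Its differences were -0.23, -0.16 and 0.11, with a mean of -0.096 ± 0.22 (SE, limma adjusted p = 0.908). The TNF groups overlapped and the pairs had no common direction. Over the leave-out settings the TNF difference lay between -0.25 and 0.0575, so its sign was not settled.

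Of the 23 transcription factors listed for the CSF2 promoter and enhancer, NFKB1 and FOSB had named probes. NFKB1, the p50 subunit of NF-kappaB, had log2 levels from 3.17 to 3.93 (median 3.63) in acid and from 2.87 to 3.60 (median 2.97) in control medium. Its differences were 0.48, 0.82 and 0.20, higher in 3 of 3 pairs, with a mean of 0.50 ± 0.23 (SE, limma adjusted p = 0.420), and its other probe gave 0.33. FOSB, an AP-1 subunit, gave -0.52, 0.89 and 0.36, a mean of 0.24 ± 0.29 (SE, limma adjusted p = 0.791), and its sign turned to -0.081 without biological replicate 2. The decay and stability factors of AU-rich messenger RNA (7 listed) had no named probe.

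For receptor signalling and its feedback, 7 of 29 listed genes were tested, and 0 of the 7 passed in limma at an adjusted or an unadjusted p under 0.05. Of all tested probes, 0% passed at the adjusted p and 12.2% at the unadjusted p, in either direction. A count of 0 among 7 genes is near these shares and is not read as a result about them. The feedback inhibitor SOCS3 was dim, well above background on 4 acid and 3 control arrays, and gave -0.50, 0.39 and 0.75 in the 3 pairs. PIM1, a kinase gene induced by STAT5, gave -0.025, 0.062 and 0.56, and the survival gene BCL2L1, well above background on 4 arrays of each group, gave 0.11, 0.064 and 0.49. MCL1, another survival gene, had a mean of 0.088 ± 0.22 (SE) and MYC one of 0.0014 ± 0.25 (SE), both well above background on every array. The stress kinase gene MAPK14 had a mean of 0.26 ± 0.23 (SE, limma adjusted p = 0.698). The directions of SOCS3, PIM1, BCL2L1 and MAPK14 turned negative with normexp background correction, to -0.72, -0.038, -0.43 and -0.25. That correction also moved the median of all tested probes to -0.19.

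**Figure D3:**
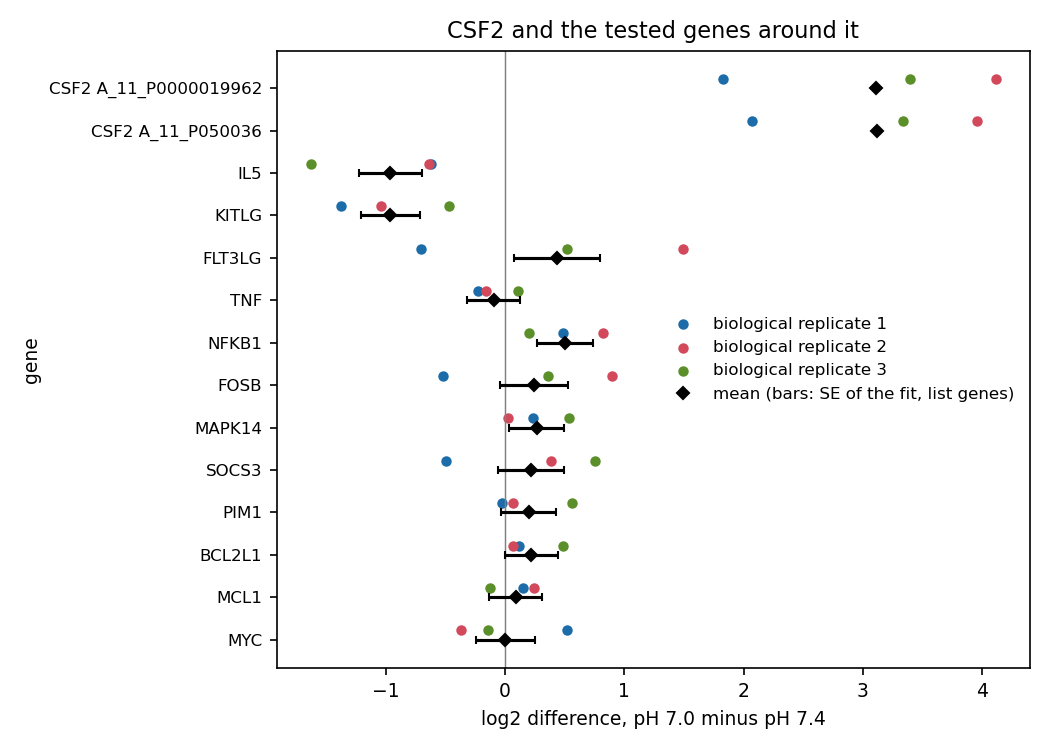
Log2 difference, pH 7.0 minus pH 7.4 (horizontal axis), for the 2 CSF2 probes and 12 of the 13 tested list genes (vertical axis, by role); coloured points are the 3 biological replicates, diamonds their means, and bars the SE of the limma fit for the list genes. The CSF2 means are 3.11 and 3.12, and the means of the list genes lie between -0.96 and 0.50.

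The neighbours of CSF2 on the chromosome were taken from the RefSeq annotation of the dog assembly UU_Cfam_GSD_1.0. Among protein-coding genes, IL3 is next on one side, followed by ACSL6. On the other side P4HA2 and PDLIM4 come first, then SLC22A4, SLC22A5, RAD50, IRF1 and IL5. Of the genes within 10 places on each side only IL3 and IL5 had a named probe. IL3 was too dim to compare and IL5 lay lower in acid, as given above. The cytokine genes IL4 and IL13, which belong to the same cluster, were well above background on 0 arrays.

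Finally, named genes were ranked by how closely their levels over the 6 RNAs followed those of A_11_P0000019962. Pearson's r over these 6 points is a description only, because the RNAs share their pH group, extraction and slide. The other CSF2 probe had an r of 0.98. Over the 597 named genes compared the median r was 0.19, and 10 of them (1.68%) exceeded 0.9. Of the 27135 tested probes compared, 243 (0.896%) did so, a count that includes both CSF2 probes. The r says nothing about the size of a gene's difference.

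The 5 named genes most like CSF2 were RAB5C, MAPT, CCL8, CCL2 and CCL28, with r of 0.97, 0.96, 0.94, 0.94 and 0.93. The chemokine genes CCL8 and CCL2, whose products attract monocytes, had the widest differences of these: 1.24, 2.82 and 1.64 for CCL8 and 0.73, 2.81 and 1.38 for CCL2 in replicates 1 to 3. All 5 genes were picked for following CSF2, itself selected on this contrast, over these same RNAs. Their pH differences, p-values and replicate order are therefore a description and add nothing to that likeness. The mean differences were 1.90 ± 0.31 (SE, limma adjusted p = 0.0754) for CCL8 and 1.64 ± 0.35 (SE, limma adjusted p = 0.136) for CCL2. The limma adjusted p passed 0.05 for CCL8 without biological replicate 1 (0.00226) or 2 (0.00757) and for CCL2 without biological replicate 1 (0.00477). A fit without a replicate rests on fewer pairs and more on the spread pooled over all tested probes. A smaller p there is therefore not stronger support. Over all alternatives the adjusted p ran from 0.00226 to 1.00 for CCL8 and from 0.00477 to 1.00 for CCL2. CCL28, a mucosal chemokine gene, gave 1.18, 1.91 and 1.05, a mean of 1.38 ± 0.25 (SE, limma adjusted p = 0.102), and its probe cleared the background on 4 of 6 control arrays. The limma adjusted p of CCL28 was 0.0238 without biological replicate 1 and ran from 0.0156 to 1.00 over all alternatives, and with normexp background correction its difference was -0.097.

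RAB5C, an early endosome GTPase gene, and MAPT, the gene of the microtubule protein tau, followed CSF2 closely at a much smaller difference. Their means were 0.44 ± 0.22 (SE, limma adjusted p = 0.458) and 0.49 ± 0.23 (SE, limma adjusted p = 0.417). Over the 12 single arrays the r of RAB5C was 0.953 and that of MAPT 0.801, so MAPT was less like CSF2 array by array. Of the 5 leaders, 4 were again among the first 5 over the 12 arrays, where ZP2 took the place of MAPT, and 3 were among the first 5 for A_11_P050036.

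At the other end, THADA, the calcium pump gene ATP2A2 and the RNA-binding protein gene RBM47 ran most opposite to CSF2, with r of -0.85, -0.83 and -0.82. Their mean differences were small, -0.38 ± 0.23, -0.27 ± 0.23 and -0.51 ± 0.22 (SE), and none passed in limma, with adjusted p of 0.539, 0.683 and 0.397.

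**Figure D4:**
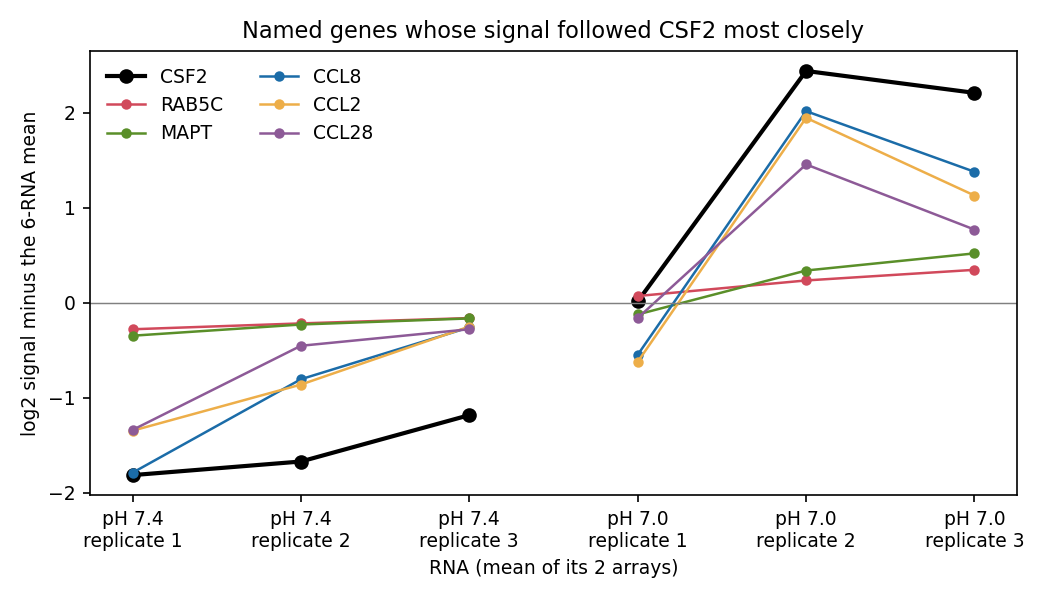
Scaled log2 signal less each gene's mean over the 6 RNAs (vertical axis) for CSF2 probe A_11_P0000019962 and the 5 named genes most like it, in the 6 RNAs (horizontal axis, control then acid); points are means of 2 arrays, and lines only connect points of a gene. CSF2 and all 5 genes, which were picked for following it, have their lowest acid RNA in replicate 1. Its levels before centring are 2.26 for CSF2, -0.35 for CCL8 and 3.42 for CCL2.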

How the data were processed

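Cy3-labelled RNA of MDCK cells was hybridised to one-colour Agilent arrays. The scans were read with Agilent Feature Extraction 10.7.3.1, per the submitters' processing notes. The scanner files deposited by the authors hold Cy3 intensity per spot, per the file headers, and the authors' deposited value table holds log2 values. Its scale and centring were unstated and were found by comparison: it matched the scaled log2 signal used here once each probe was centred on its median over arrays (lowest slope 0.9997). The medians of its columns at pH 7.0 (arrays 1 to 6) were -0.113, -0.150, 0.226, 0.213, -0.226 and 0.0170. Those at pH 7.4 (arrays 1 to 6) were 0.0197, -0.212, 0.213, 0.0793, -0.0855 and 0.0656. A direction applies to no single-colour value, and the table served as an alternative.

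Control spots were left out, 128 outlier spots were set missing and spots of a probe were averaged. The processed signal was taken to log2 and lowered by the 75th percentile of its array, and the 2 arrays of an RNA were averaged to 1 replicate. By the numbers in the titles, biological replicate 1 is on arrays 1 and 2 of each group, replicate 2 on 3 and 4, and replicate 3 on 5 and 6. Same-numbered acid and control RNAs deviated together over all tested probes (r = 0.394, 0.637 and 0.807). They also shared a slide and scan, so this r cannot by itself show the pairing. Acid RNA 1 had an r of 0.255 with control RNA 2, and the other unlike-numbered pairs had a negative r. The pairing is given by the series' design text. limma 3.58.1 in R 4.3.3 fitted the pH difference, blocking on biological replicate (lmFit, eBayes, 9.67 moderated degrees of freedom), two-sided. Its p-values rest on the spread of paired differences between 3 extractions of 1 line, drawn toward a spread pooled over all tested probes. The SE of a gene is therefore not that of its own 3 pairs alone. The number of biological replicates, 3, limits the precision, because the arrays of an RNA were averaged. Figures used python 3.11.15 and matplotlib 3.10.9.

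CSF2 and the gene lists were chosen with earlier results of these data known. A gene was read by its brightest probe. All members of the first 3 lists (receptor subunits, genes that share the beta subunit, growth factors), up to 6 of lowest unadjusted p in each other list, and the 5 named genes most and 3 least like CSF2 were to be named. Gene names came from RefSeq accessions matched to UU_Cfam_GSD_1.0. For a gene seen in 1 group only, the bound sets the bright group's mean against, per control array, the higher of its own signal and the lowest signal well above background. Alternatives covered the block, duplicate arrays, background correction (normexp, offset 50), scaling, the value table, dim-probe and outlier filters, thresholds, and leaving out each array and each biological replicate. The order of neighbouring genes came from that annotation. Probe sequences were not used here, and 1 tested signalling gene, included in the counts, is not reported here by name.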

Additional observations from a re-analysis of the deposited data

How the results depend on the processing

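The CSF2 differences kept their direction under every alternative run. They lay between 3.06 (quantile scaling) and 3.12 (median scaling) at A_11_P0000019962 and between 2.41 (normexp) and 3.12 at A_11_P050036, apart from leave-outs, which gave 2.61 to 3.75 and 2.70 to 3.64. Without the replicate block they were 3.11 and 3.12, and 0 probes were called, as with it. Among tested probes only, the mean percentile of A_11_P0000019962 was 66.6 at pH 7.4, and that of A_11_P050036 was 72.8 at pH 7.0 and 42.3 at pH 7.4. Probes called higher and lower were 0 and 0 in the reported fit, 10 and 4 with normexp, 17 and 7 with median scaling, 90 and 44 among probes well above background on all 12 arrays, 396 and 294 with duplicateCorrelation on 12 arrays, and 48 and 23 at an adjusted p under 0.10. Leaving out replicates or arrays gave 0 to 203 higher and 0 to 447 lower. Leaving out pH 7.0 array 6 alone gave 10 and 5, and leaving out pH 7.4 array 1 gave 4 and 0. With duplicateCorrelation 2 list genes, IL5 and KITLG, were called lower (adjusted p of 0.0440 and 0.0223, over all alternatives 0.0440 to 1.00 and 0.0223 to 1.00), and CCL2, CCL8 and CCL28 were called higher (0.0118, 0.00235 and 0.0156). CCL2 was also called with normexp (0.0393), and CCL2 and CCL8 with the 12-array filter (0.0473 and 0.0179). CCL2, CCL8 and CCL28 were called without biological replicate 1 (0.00477, 0.00226 and 0.0238), and CCL8 without biological replicate 2 (0.00757). These 3 genes were picked for following CSF2, and fits without a replicate rest on fewer pairs, so such calls add no support. List genes higher at an unadjusted p under 0.05 numbered 0, but 1 without a filter, 1 with the 12-array filter, 1 with duplicateCorrelation and 0 to 2 in leave-outs, while those lower numbered 1 to 2 in leave-outs. The other CSF2 probe shared 3 of the 5 pattern leaders. Of 521 values of 21 single genes under alternatives, 22 in 10 genes changed sign. Normexp gave -0.43 for BCL2L1, -0.097 for CCL28, -0.12 for FOSB, -0.25 for MAPK14, -0.038 for PIM1 and -0.72 for SOCS3, and quantile scaling -0.038 for MYC. Leave-outs gave -0.075 to 0.52 for BCL2L1, -0.095 to 1.01 for FLT3LG, -0.081 to 0.63 for FOSB, -0.016 to 0.20 for MCL1, -0.26 to 0.19 for MYC, -0.055 to 0.57 for SOCS3 and -0.25 to 0.0575 for TNF. The cause was not tested. Signal over background limits IL1A, TNF, SOCS3, BCL2L1, CCL28 and CLDN2, which were not well above background on every array.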
